A study of Arabidopsis thaliana with 39 samples.

Results

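Small RNA sequencing of Arabidopsis thaliana rosette leaves under severe drought (D20) was set against leaves of watered plants of the same age (C20), and all mature miRNA sequences counted in those 6 libraries are described here. The members are 353 distinct mature sequences, which carry 431 miRNA names and are the same 353 that were counted in the 39 libraries of the whole series. Where several names stand for 1 sequence they are written together, such as miR399b,c-3p. At least 1 read was present for 297 of the 353 sequences in the 6 libraries.

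The D20 plants were Col-0 wild type, 30 days old, grown in soil that started at 70% water content under days of 16 h at 22 °C and nights of 8 h at 15 °C, from which water was withheld until the soil reached 20% and the leaves wilted. The C20 plants were Col-0 wild type of the same 30 days that served as the watered control. Each group had 3 biological replicates, and the study states that drought was applied to separate plant batches. The labels of the drought samples write FC beside the percentage, and those of the controls and the study write soil water content (SWC). Mild drought (D30, soil at 30%) and its own control (C30), both from plants of 27 days, are used for comparison only. The small RNA counts hold no marker gene of leaf identity, so the labelled organ could not be checked against them.

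A plant miRNA is cut from a hairpin precursor as a duplex by DICER-LIKE1, and 1 strand of the duplex is usually retained by an ARGONAUTE protein, where it guides cleavage or translational repression of transcripts with a nearly complementary site. Several families are known for growth and hormone responses (miR159, miR160, miR166, miR167, miR172, miR390, miR396), and others for the supply of copper, phosphate and sulfate (miR395, miR397, miR398, miR399, miR408, miR2111). Water deficit is known to alter growth, senescence and nutrient uptake in leaves, and miRNAs of both kinds have been studied in that setting.

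The sequences on which the following results turn are given first, 5′ to 3′, as deposited (T for U), with the seed, bases 2 to 8, in capitals. The copper and phosphate miRNAs and miR866-5p are shown because the calls that held without any 1 library are among them, both strands of the miR160a hairpin because they moved in opposite directions, and the small RNAs next to miR319 because all of them fell.
miR408-5p: aCAGGGAAcaagcagagcatg
miR408-3p: aTGCACTGcctcttccctggc
miR397a: tCATTGAGtgcagcgttgatg
miR399b,c-3p: tGCCAAAGgagagttgccctg
miR2111a-5p,b-5p: tAATCTGCatcctgaggttta
miR2111b-3p: aTCCTCGGgatacagtttacc
miR866-5p: tCAAGGAAcggattttgttaa
miR394a,b-5p: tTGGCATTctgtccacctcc
miR2936: cTTGAGAGagagaacacagacg
miR159a: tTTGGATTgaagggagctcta
miR160a-5p,b,c-5p: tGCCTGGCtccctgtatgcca
miR160a-3p: gCGTATGAggagccatgcata
miR319a.2: aATGAATGatgcggtagacaa
miR319b.2: aATGAATGatgcgagagacaa
miR319c.2: tGTGAATGatgcgggagatat
miR390a-5p,b-5p: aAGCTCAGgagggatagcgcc
Among the 33 sequences called under severe drought, only miR319a.2 and miR319b.2 shared a seed. All 353 sequences had an exact match in the TAIR10.1 assembly, and 22 of the 33 called ones matched at 1 locus.

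Severe drought changed a limited set of miRNAs in both directions. Of the 167 sequences with enough reads for a test, 33 (19.8%) were called by edgeR's quasi-likelihood test at a Benjamini-Hochberg adjusted p under 0.05, 15 of them higher (8.98%) and 18 lower (10.8%) in D20 leaves. The rises spanned log2 fold changes of 0.61 (miR823) to 4.85 (miR2111b-3p), and 5 of them were at least 4-fold. The falls spanned -0.42 (miR157a-5p,b-5p,c-5p) to -2.003 (miR167a-3p), and 1 of them reached 4-fold. The copper miRNAs miR408 and miR397a, the phosphate miRNAs miR399 and miR2111, miR394, miR159a and miR160 were among the rises. The falls included small RNAs from second miR319 duplexes, miR390, miR161.1, miR172 and several strands opposite a known regulator.

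**Figure D1:**
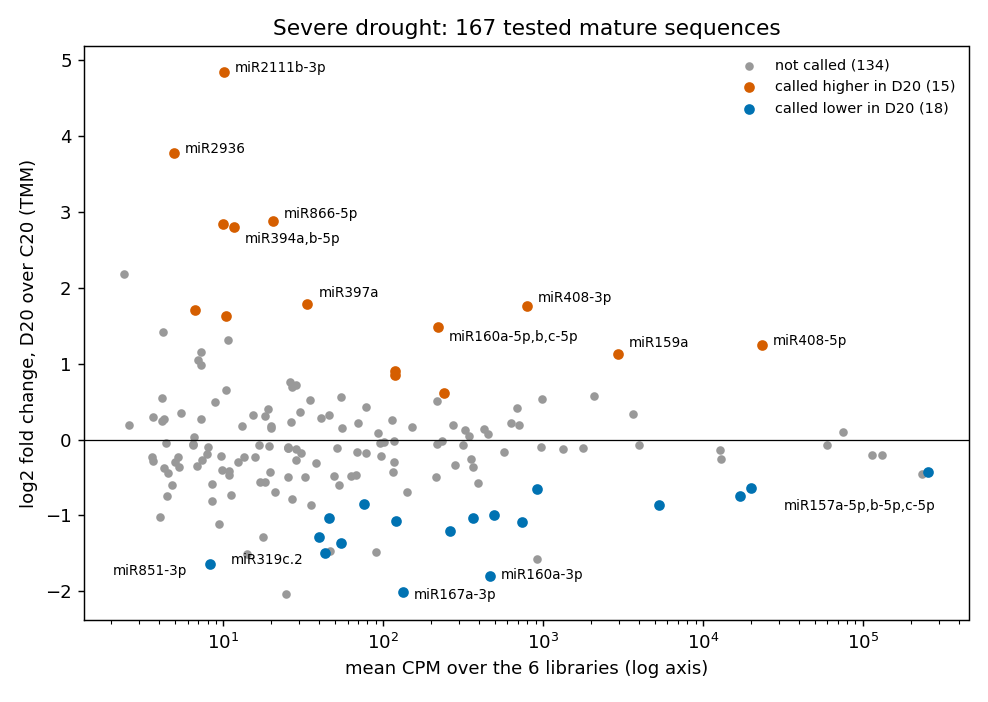
Each point is 1 of the 167 tested sequences, with its mean CPM over the 6 libraries (counts per 1000000 miRNA reads, log axis) and its log2 fold change of D20 over C20. The 15 higher calls (orange) reach 4.85 at miR2111b-3p, the 18 lower calls (blue) reach -2.003 at miR167a-3p, and the 134 other sequences are gray.

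The libraries were of even depth. Per library 10578672 to 10728538 reads were sequenced and 2643250 to 3624932 were counted as miRNAs, so that 3 reads correspond to 0.828 to 1.13 CPM (counts per 1000000 miRNA reads). Of all reads, 97.1 to 97.8% mapped to the genome in D20 libraries and 94.0 to 96.8% in C20 libraries, without overlap, and the part of this in the results was not tested. RNA integrity numbers were 8.3 to 8.6 in D20 and 8.3 to 9.1 in C20. Without D20 replicate 2 only 7 sequences were called (5 higher, 2 lower), and without D20 replicate 3 also 7 (5 higher, 2 lower), in each case all of them among the 33. Without D20 replicate 1 the count was 32, of which 27 were among the 33. Among the C20 libraries, leaving out replicate 3 gave 20 calls (13 higher, 7 lower), replicate 2 gave 27 and replicate 1 gave 44 (24 higher, 20 lower). D20 replicate 1 was the D20 library closest to the C20 mean for 17 of the 33 called sequences, against 8 each for D20 replicates 2 and 3. C20 replicate 1 stood apart from the other watered libraries, with Pearson correlations over log2 CPM of 0.974 and 0.977 to C20 replicates 2 and 3, against 0.992 between those. The calls of miR408-5p, miR408-3p, miR397a, miR866-5p and miR2111b-3p held in each of the 6 fits without 1 library, and 28 of the 33 were lost in at least 1 of them.

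Levels are relative to the other miRNAs of a library. CPM, percentages of reads and statements on their overlap are given without TMM. Scaled by TMM, as in all log2 fold changes here unless another scaling is named, the median log2 fold change of the 167 sequences was -0.11. Scaled by total miRNA counts it moved by 0.26 and the calls were 22 higher and 13 lower, by genome-mapped reads it moved by 0.10 (17 higher, 15 lower), and by RLE by 0.06 (17 higher, 17 lower). Without TMM, the CPM of the groups did not overlap for 43 sequences that were higher in D20 (25.7%) and 20 that were lower (12%), 63 in all (37.7%). Of the 33 called sequences 32 were among these, all but miR157a-5p,b-5p,c-5p. The miRNA reads made up 27.8, 25.6 and 30.6% of the genome-mapped reads in D20 libraries, against 26.3, 36.0 and 32.3% in C20 libraries. The groups overlapped, and the difference of -3.54 percentage points had an exact permutation p of 0.3 (two-sided), where 3 against 3 libraries cannot give less than 0.1.

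Among the copper-response miRNAs both strands of the MIR408 hairpin and miR397a rose under severe drought. These families repress transcripts of copper proteins and are known to accumulate when copper is scarce. Of 8 tested sequences of miR397, miR398, miR408 and miR857, 3 rose and 0 fell, and their median log2 fold change was 0.74 beside -0.11 for all tested sequences. The hairpin is encoded at chr2:19319814-19320031 of TAIR10.1, plus strand, where it overlaps a non-coding exon of AT2G47020 on the opposite strand. Its sequence follows with the counted strands in capitals, miR408-5p first.
MIR408: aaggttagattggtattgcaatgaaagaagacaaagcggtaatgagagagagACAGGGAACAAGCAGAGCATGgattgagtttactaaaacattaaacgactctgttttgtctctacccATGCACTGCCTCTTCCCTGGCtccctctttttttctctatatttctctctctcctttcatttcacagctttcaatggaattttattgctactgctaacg

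The more abundant strand, miR408-5p, took 2.96, 3.26 and 4.19% of all miRNA reads in D20 libraries, against 1.13, 1.33 and 1.16% in C20 libraries. Every drought library lay above every watered one, and the log2 fold change was 1.25 (SE 0.17, edgeR adjusted p = 0.00453). The strand that represses plantacyanin and laccases, miR408-3p, had 906, 1432 and 1472 CPM in D20, against 378, 305 and 251 CPM in C20. It rose by 1.77 (log2, SE 0.23, edgeR adjusted p = 0.00453), again without overlap, with the lowest of the drought values in replicate 1. The laccase regulator miR397a had 35.3, 61.7 and 66.4 CPM in D20, against a narrow 12.1, 13.2 and 13.6 CPM in C20, a log2 fold change of 1.79 (SE 0.29, edgeR adjusted p = 0.00825). Its near-identical relative miR397b, which has the same seed, had 11.5, 20.4 and 23.7 CPM in D20, against 11.0, 12.7 and 13.0 CPM in C20, and was not called (0.32, SE 0.31, edgeR adjusted p = 0.547).

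The regulator of copper superoxide dismutases, miR398b-3p,c-3p, was among the 5 uncalled sequences closest to a call. Its level was 6.64, 11.7 and 13.3 CPM in D20, against 5.13, 2.48 and 4.32 CPM in C20, a log2 fold change of 1.16 (SE 0.38, edgeR adjusted p = 0.0691) that was called with total miRNA counts as the library size (edgeR adjusted p = 0.0433). It passed the filter on low counts through D20, as C20 replicate 2 lay below the cutoff, so its difference is given as a description. The strand opposite to it, miR398b-5p,c-5p, had 96.4, 106 and 112 CPM in D20, against 63.1, 65.9 and 115 CPM in C20, with overlap (0.09, SE 0.28). The laccase regulator miR857 stood at 0.32 (SE 0.30) and miR398a-5p at -0.11 (SE 0.24), and neither was called. A stretch of a known target of each risen miRNA is shown from TAIR10.1, sense strand, 5′ to 3′, with the bases opposite the seed in capitals. The miR408-3p site lies in the coding exon of plantacyanin (ARPN, AT2G02850, minus strand), and 19 of its 21 bases pair with the miRNA. The miR397a site lies in the coding exon of the laccase LAC2 (AT2G29130, minus strand), where 19 of 21 bases pair and 1 more is a G-U pair.
ARPN site, chr2:827696-827716: ccaagggaagaggCAGTGCAt
LAC2 site, chr2:12526364-12526384: aatcaatgctgcaCTCAATGa

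**Figure D2:**
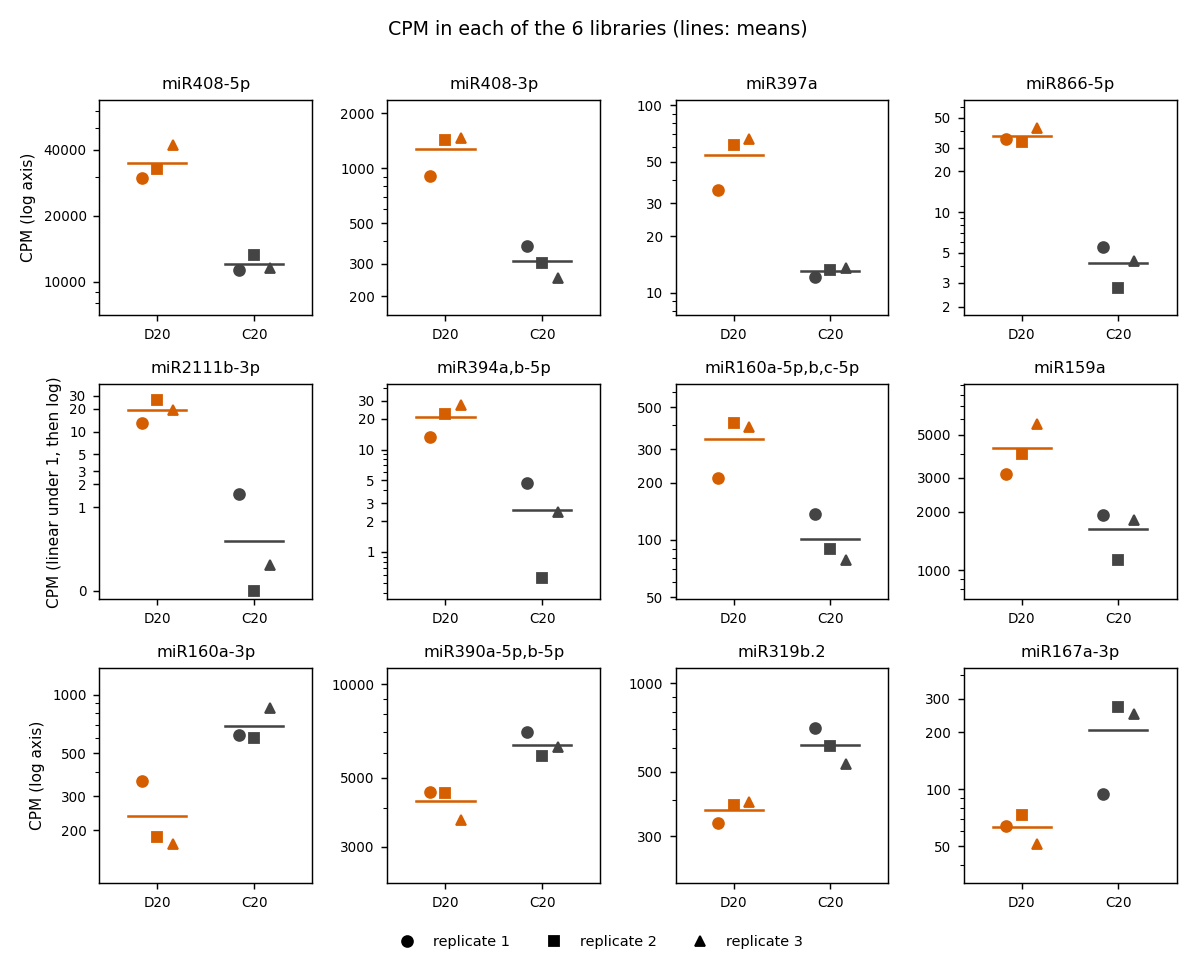
CPM of 12 called sequences in each library, D20 left and C20 right, on log axes (for miR2111b-3p linear under 1), with lines at the group means and a symbol per replicate. In the 8 upper panels (rises) every D20 value lies above every C20 value, and in the 4 lower panels (falls) every D20 value lies below. D20 replicate 1 (circles) is the drought value nearest to C20 for miR408-3p, miR397a, miR394a,b-5p, miR160a-5p,b,c-5p and miR160a-3p.

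Phosphate-response miRNAs of the miR399 and miR2111 families rose from low levels. miR399 represses PHO2, a ubiquitin conjugase that limits phosphate uptake, and miR2111, which like miR399 accumulates when phosphate is short, targets the kelch-repeat F-box gene AT3G27150. Of 4 tested sequences of these families and miR827, 3 rose and 0 fell, with a median log2 fold change of 2.24 beside -0.11 for all tested. Of the 11 counted sequences in this list only these 4 passed the filter on low counts. A member that passes only through the group where it is high had to differ, so the count is given as a description.

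miR2111b-3p had 37, 70 and 61 reads in D20 libraries (12.9, 26.5 and 19.3 CPM), against 4, 0 and 1 reads in C20 libraries. The log2 fold change of 4.85 (SE 0.69, edgeR adjusted p = 0.00453) was the largest of all tested sequences and rests on those 5 control reads. The opposite strand, miR2111a-5p,b-5p, which is the known regulator, had 7.68, 20.1 and 25.6 CPM in D20, against 4.40, 1.38 and 0.618 CPM in C20. It rose by 2.85 (log2, SE 0.65, edgeR adjusted p = 0.0166), with the smallest gap between the groups set by replicate 1 of each. Of the reads of both strands, miR2111b-3p held 62.7, 56.9 and 43.0% in D20 libraries, against 25.0, 0 and 33.3% in C20 libraries. The C20 shares rest on few reads, and the 5p sequence is also encoded by MIR2111a. The MIR2111b hairpin follows, from chr5:400358-400524 of TAIR10.1, plus strand, with both strands in capitals.
MIR2111b: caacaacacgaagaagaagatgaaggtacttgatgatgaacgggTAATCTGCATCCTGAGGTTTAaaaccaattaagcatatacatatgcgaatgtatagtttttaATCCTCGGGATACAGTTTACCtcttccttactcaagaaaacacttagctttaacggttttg

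miR399b,c-3p had 17.5, 18.5 and 13.6 CPM in D20 leaves, against 4.40, 2.76 and 6.18 CPM in C20 leaves, and rose by 1.63 (log2, SE 0.34, edgeR adjusted p = 0.0134). Other miR399 members were too low for a test, and their reads were on the same side. miR399f had 6, 4 and 5 reads in D20, against 1, 1 and 0 in C20, and miR399c-5p, from a strand opposite miR399c-3p, had 1, 6 and 4 reads in D20, against 0, 2 and 0 in C20. miR827, which represses the phosphate-signalling ubiquitin ligase NLA, had 38.1, 43.9 and 51.9 CPM in D20, against 27.1, 23.2 and 26.9 CPM in C20. The groups did not overlap, but at 0.53 (SE 0.21, edgeR adjusted p = 0.115) it was not called by TMM, and with total miRNA counts as the library size it was (edgeR adjusted p = 0.0416). Without D20 replicate 2 or 3 miR399b,c-3p was no longer called (edgeR adjusted p up to 0.0637), nor was miR2111a-5p,b-5p without D20 replicate 2 or 3 or C20 replicate 3 (edgeR adjusted p up to 0.0737). The best-matching miR399 site in PHO2 (AT2G33770, minus strand) lies in a 5′ leader exon upstream of the coding region, where 18 of 21 bases pair. The miR2111 site lies in a coding exon of AT3G27150 (minus strand), where 19 of 21 bases pair.
PHO2 site, chr2:14282106-14282126: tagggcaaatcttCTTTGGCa
AT3G27150 site, chr3:10010764-10010784: gaaacctaaggatGCAGATTa

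The sulfate-response family miR395, which represses ATP sulfurylases and a sulfate transporter, lay on the same side but was not called. miR395a,d,e had 5.24, 3.40 and 3.79 CPM in D20, against 0, 0.828 and 1.24 CPM in C20, a log2 fold change of 2.18 (SE 0.69, edgeR adjusted p = 0.0634). With total miRNA counts as the library size it was called (2.46, edgeR adjusted p = 0.0387). The other counted member, miR395b,c,f, had 6.98, 4.54 and 7.90 CPM in D20, against 1.10, 1.10 and 3.71 CPM in C20 (1.42, SE 0.53, edgeR adjusted p = 0.109). In both sequences every drought library lay above every watered one, at levels of a few CPM. Both passed the filter on low counts only through D20, where they are high, so these differences are given as descriptions.

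The smallest adjusted p of all sequences belonged to miR866-5p, a miRNA with no family member among the counted sequences other than its partner strand. It had 100, 88 and 133 reads in D20 libraries (34.9, 33.3 and 42.1 CPM), against 15, 10 and 14 reads in C20 libraries (5.50, 2.76 and 4.32 CPM). The 3 libraries of each group were close to each other and far from the other group. The log2 fold change was 2.88 (SE 0.27, edgeR adjusted p = 0.00115). The sequence passed the filter on low counts through its D20 libraries, as C20 replicate 2 lay below the cutoff. Its call is therefore given as a description, as for the phosphate list. The partner strand miR866-3p was too low for a test, with 3, 1 and 7 reads in D20 and 0 reads in each C20 library. Across the 13 conditions of the series the mean of miR866-5p in D20, 36.8 CPM, was the highest, and the other 12 means lay between 2.64 and 8.52 CPM. It is encoded on the minus strand of chromosome 5, from 16157911 to 16157931, in the MIR866 hairpin and in no other annotated gene.

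miR394a,b-5p, which represses the F-box gene LCR in leaf development, had 13.3, 22.3 and 27.2 CPM in D20, against 4.77, 0.552 and 2.47 CPM in C20. It rose by 2.81 (log2, SE 0.56, edgeR adjusted p = 0.0123). The mean of the C20 leaves, 2.60 CPM, was the lowest of the 13 conditions, and the younger leaves of the mild drought experiment held 14.1 CPM (D30) and 13.1 CPM (C30). The partner strand miR394b-3p had 0 reads in each D20 library and 1 read in C20 replicate 1.

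miR2936 had 15, 29 and 37 reads in D20 libraries (5.24, 11.0 and 11.7 CPM), against 3, 0 and 2 reads in C20 libraries. Its log2 fold change was 3.78 (SE 0.69, edgeR adjusted p = 0.0115). The mature sequence lies within a coding exon of SAG21 (AT4G02380), a senescence-associated gene of the late embryogenesis abundant class, on the same strand, at positions 1046948 to 1046969 of chromosome 4. Reads cut from the miRNA precursor and reads from fragments of the SAG21 transcript cannot be told apart in these counts. In the salinity seedlings of the series the mean of miR2936 was 24.5 CPM, above the 9.30 CPM of D20, and the other 11 conditions were at 0.573 CPM or below.

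miR447c-5p had 9.43, 13.2 and 9.49 CPM in D20, against 1.47, 2.48 and 4.01 CPM in C20, and rose by 1.70 (log2, SE 0.41, edgeR adjusted p = 0.0205). Its sequence matches 3 precursors on chromosome 4, MIR447a, MIR447b and MIR447c. The more abundant miR447a-3p,b, from the other arm, had 202, 201 and 210 reads in D20, against 207, 208 and 218 reads in C20, and was not called. The calls of miR394a,b-5p, miR2936 and miR447c-5p were lost without D20 replicate 2 or 3, and that of miR447c-5p also without C20 replicate 2 (edgeR adjusted p up to 0.0623, 0.0541 and 0.0991 for the 3 sequences in this order). All of miR394a,b-5p, miR2936 and miR447c-5p passed the filter on low counts only through D20, where they are high. Their calls are therefore given as descriptions, as for the phosphate list. The LCR site (AT1G27340, plus strand, coding exon) pairs with 19 of the 20 bases of miR394a,b-5p.
LCR site, chr1:9497605-9497624: ggaggttgacagAATGCCAa

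Among the abundant regulators of development, miR159a and miR160 rose. miR159a represses the GAMYB-like factors MYB33 and MYB65 and had 3121, 3956 and 5684 CPM in D20, against 1938, 1137 and 1825 CPM in C20. The groups did not overlap, and the log2 fold change was 1.12 (SE 0.25, edgeR adjusted p = 0.0145). The D20 mean, 4254 CPM, was the highest of the 13 conditions. miR159b-3p, which has the same seed, had 635, 811 and 1086 CPM in D20, against 637, 368 and 578 CPM in C20, with overlap and no call (0.42, SE 0.24, edgeR adjusted p = 0.295). The related miR319a,b, a regulator of TCP factors, ranged over 16.4, 22.7 and 63.9 CPM in D20 and 47.3, 1.10 and 5.87 CPM in C20, too wide a spread for a difference to be seen (0.76, SE 1.02).

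miR160a-5p,b,c-5p represses the auxin response factors ARF10, ARF16 and ARF17 and had 213, 412 and 392 CPM in D20, against 137, 89.7 and 78.1 CPM in C20. It rose by 1.49 (log2, SE 0.30, edgeR adjusted p = 0.0123). The other strand of the MIR160a hairpin went the opposite way. miR160a-3p had 359, 185 and 171 CPM in D20, against 620.0, 597 and 855 CPM in C20, and fell by 1.80 (log2, SE 0.33, edgeR adjusted p = 0.0115). In both strands D20 replicate 1 was the drought library nearest to the control. The reads of the 5p strand come from 3 hairpins (MIR160a, MIR160b and MIR160c) and those of miR160a-3p from MIR160a alone, so the levels of both strands of a single hairpin cannot be read from the counts. miR160c-3p, the partner strand at MIR160c, was not called (-0.57, edgeR adjusted p = 0.576). The MIR160a hairpin is at chr2:16340279-16340363, plus strand, with both strands in capitals, and 20 of the 21 bases of the ARF17 site (AT1G77850, plus strand, coding exon) pair with the 5p strand.
MIR160a: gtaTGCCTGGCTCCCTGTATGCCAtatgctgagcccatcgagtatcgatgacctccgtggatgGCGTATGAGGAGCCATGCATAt
ARF17 site, chr1:29274189-29274209: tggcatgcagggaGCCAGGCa
The calls of miR159a and of both miR160 strands were lost without D20 replicate 2 or 3 (edgeR adjusted p up to 0.0686 for miR159a and miR160a-3p, and up to 0.0623 for miR160a-5p,b,c-5p).

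The remaining rises were under 2-fold on the TMM scale. miR169d,e,f-5p,g-5p, a regulator of nuclear factor Y subunits of the A class, had 153, 189 and 148 CPM in D20, against 71.5, 53.8 and 93.3 CPM in C20 (0.91, SE 0.24, edgeR adjusted p = 0.0317). The other 4 tested miR169 sequences were not called, and 4 of the 5 members lay below 0, with a family median of -0.47. miR824-3p, the strand opposite the AGL16 regulator, had 167, 172 and 152 CPM in D20, against 62.3, 90.2 and 71.3 CPM in C20 (0.85, SE 0.24, edgeR adjusted p = 0.0389), whereas the regulator miR824-5p stood at 0.17 (SE 0.27). miR823, which targets the DNA methyltransferase CMT3, had 278, 336 and 325 CPM in D20, against 162, 176 and 171 CPM in C20 (0.61, SE 0.18, edgeR adjusted p = 0.0465). These 3 calls were the weakest of the rises: each was lost without any 1 of the D20 libraries, that of miR169d,e,f-5p,g-5p also without C20 replicate 2, that of miR824-3p without C20 replicate 3 and that of miR823 without either of them (edgeR adjusted p up to 0.122, 0.108 and 0.128 in this order). With genome-mapped reads as the library size miR823 was not called.

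All 3 small RNAs from second miR319 duplexes fell. They are cut from the miR319 hairpins next to miR319 itself, and their median log2 fold change was -1.36 beside -0.11 for all tested sequences. miR319a.2 had 30.7, 34.0 and 39.2 CPM in D20, against 86.2, 69.0 and 67.9 CPM in C20. miR319b.2, the most abundant of the 3, had 332, 384 and 393 CPM in D20, against 704, 610.5 and 531 CPM in C20. miR319c.2 had 28.6, 28.8 and 20.6 CPM in D20, against 49.9, 76.7 and 54.3 CPM in C20. None of the 3 overlapped between the groups, and the log2 fold changes were -1.36 for miR319a.2 (SE 0.20, edgeR adjusted p = 0.00453), -0.998 for miR319b.2 (SE 0.17, edgeR adjusted p = 0.00825) and -1.50 for miR319c.2 (SE 0.30, edgeR adjusted p = 0.0123). The neighbour miR319a,b, which is encoded in 2 of the same hairpins, was not called, as given above.
MIR319b: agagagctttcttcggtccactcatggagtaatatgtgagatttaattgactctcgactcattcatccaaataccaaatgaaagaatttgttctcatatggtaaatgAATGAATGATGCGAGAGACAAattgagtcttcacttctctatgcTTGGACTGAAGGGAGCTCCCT
In this hairpin (chr5:16660469-16660640 of TAIR10.1, read from the minus strand) the capitals mark miR319b.2 and, at the 3′ end, miR319a,b. Without D20 replicate 2 the calls of miR319a.2, miR319b.2 and miR319c.2 were lost (edgeR adjusted p = 0.0541, 0.0637 and 0.0637), and that of miR319c.2 also without D20 replicate 3 (edgeR adjusted p = 0.0656).

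In the list of trans-acting siRNA triggers and their partner strands, 2 of 4 tested members fell and 0 rose, with a median log2 fold change of -0.95. miR390a-5p,b-5p, which triggers siRNA production from TAS3 transcripts, had 4497, 4488 and 3670.2 CPM in D20, against 7041, 5867 and 6286 CPM in C20. The groups were well apart, and the log2 fold change was -0.86 (SE 0.15, edgeR adjusted p = 0.00895). Its partner strand miR390a-3p had 9.78, 7.94 and 6.64 CPM in D20, against 38.1, 6.90 and 15.4 CPM in C20, with overlap (-1.50, SE 0.54, edgeR adjusted p = 0.100). The trigger of TAS1 and TAS2 siRNAs, miR173-5p, had 3003, 6104 and 4159 CPM in D20, against 3019, 2715 and 3048 CPM in C20, and was not called (0.33, SE 0.25). Its partner strand miR173-3p had 29.7, 34.0 and 38.6 CPM in D20, against 67.5, 50.5 and 57.4 CPM in C20, without overlap (-1.04, SE 0.20, edgeR adjusted p = 0.0123). Neither miR390a-5p,b-5p nor miR173-3p was called without D20 replicate 2 or 3, nor was miR173-3p without C20 replicate 3 (edgeR adjusted p up to 0.0637 and 0.0991 in this order).

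The other falls included some of the most abundant leaf miRNAs, at small size. miR161.1, which targets transcripts of pentatricopeptide repeat proteins, took 1.52, 1.46 and 1.30% of the miRNA reads in D20, against 1.83, 1.96 and 2.16% in C20, and fell by 0.74 (log2, SE 0.15, edgeR adjusted p = 0.0132). The AP2 regulator miR172a,b-3p took 1.79, 1.66 and 1.77% in D20, against 2.97, 1.85 and 2.01% in C20, and fell by 0.64 (log2, SE 0.15, edgeR adjusted p = 0.0188). C20 replicate 1 stood apart upward in miR172a,b-3p, and without it the sequence was not called (-0.40, edgeR adjusted p = 0.0685). miR157a-5p,b-5p,c-5p, a regulator of SPL factors and the most abundant sequence of all, took 23.0, 23.4 and 26.3% in D20, against 30.3, 23.8 and 27.3% in C20. These shares overlapped. Its call (-0.42, SE 0.10, edgeR adjusted p = 0.0166) was lost in every fit without 1 library (edgeR adjusted p up to 0.389), under each of the 3 other scalings and with DESeq2. Nor was miR172a,b-3p called when libraries were scaled by total miRNA counts or by genome-mapped reads.

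Several falls were of strands opposite a known regulator. miR167a-3p had 64.3, 73.4 and 51.2 CPM in D20, against 95.0, 271 and 249 CPM in C20, a change of -2.003 (log2, SE 0.43, edgeR adjusted p = 0.0144), while the regulator of ARF6 and ARF8, miR167a-5p,b, took 21.3, 23.4 and 21.9% of the miRNA reads in D20, against 21.05, 28.3 and 25.6% in C20, and was not called (-0.45, SE 0.17). miR396b-3p had 246, 149 and 138 CPM in D20, against 385, 287 and 359 CPM in C20, and fell by 1.20 (log2, SE 0.26, edgeR adjusted p = 0.0144). The repressor of growth-regulating factors from the same hairpin, miR396b-5p, had 281, 382 and 439.8 CPM in D20, against 320.5, 223 and 301 CPM in C20, with overlap (0.13, SE 0.20). miR166a-5p,b-5p had 263, 289 and 262 CPM in D20, against 375, 492 and 511 CPM in C20 (-1.04, SE 0.21, edgeR adjusted p = 0.0128), beside the repressor of HD-ZIP III factors at -0.20 (SE 0.20). miR171c-5p had 24.1, 33.3 and 20.9 CPM in D20, against 59.0, 44.7 and 55.9 CPM in C20 (-1.28, SE 0.25, edgeR adjusted p = 0.0123), and miR171b-5p had 75.4, 102 and 89.2 CPM in D20, against 113, 161 and 188 CPM in C20 (-1.07, SE 0.27, edgeR adjusted p = 0.0234). Their shared partner miR171b-3p,c-3p, a regulator of HAM factors, was not called (0.40, SE 0.40). miR172b-5p,e-5p had 720.1, 462 and 417 CPM in D20, against 970.2, 829 and 1048 CPM in C20 (-1.09, SE 0.24, edgeR adjusted p = 0.0155), and miR472-5p had 699, 829 and 882 CPM in D20, against 1137, 994 and 1008 CPM in C20 (-0.65, SE 0.15, edgeR adjusted p = 0.0173). The regulator of NB-LRR transcripts opposite the last, miR472-3p, stood at 0.18 (SE 0.29).

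miR851-3p had 3.84, 6.81 and 3.16 CPM in D20, against 13.9, 10.8 and 11.4 CPM in C20 (-1.64, SE 0.35, edgeR adjusted p = 0.0139), and miR829-3p.1 had 52.4, 67.0 and 62.9 CPM in D20, against 111, 83.0 and 80.3 CPM in C20 (-0.85, SE 0.20, edgeR adjusted p = 0.0188). The last was lost with total miRNA counts as the library size, as were miR472-5p and miR171b-5p, and miR472-5p was also lost with genome-mapped reads. Among the falls named in these paragraphs, leaving out D20 replicate 3 ended each call, leaving out D20 replicate 2 each except those of miR171c-5p and miR851-3p, and leaving out C20 replicate 3 each except those of the same 2 (largest edgeR adjusted p 0.187, at miR172a,b-3p, beside miR157a-5p,b-5p,c-5p above). The calls of miR161.1, miR166a-5p,b-5p, miR171b-5p, miR472-5p and miR829-3p.1 were lost without C20 replicate 2 as well, and those of miR171b-5p and miR829-3p.1 without D20 replicate 1.

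The lists of miRNA families, grouped by known targets, moved unevenly. They hold both strands of a hairpin, so a member can be the strand opposite the known regulator. The 15 rises included 13 members of the 22 lists and the 18 falls 16. The share of all tested sequences that belong to a list was not counted. The lists were chosen with earlier results of these data known, so these counts are descriptions. In 3 lists every tested member lay below 0, namely the second miR319 duplexes (3 of 3 fell), the AP2 regulators of the miR172 family (2 of 4 fell, median -0.60) and the miRNAs cut by DICER-LIKE4 (0 of 4 called, median -0.46). Most tested sequences lay below 0 on the TMM scale, as only 65 of 167 (38.9%) lay above it. The AP2 falls were of miR172a,b-3p and of the opposite strand miR172b-5p,e-5p. The auxin list (miR160, miR167 and miR393) had 1 rise and 2 falls among 10 tested. Both falls were of strands opposite a regulator, miR160a-3p and miR167a-3p. The HAM list had 2 falls among 5, again both of opposite strands, miR171b-5p and miR171c-5p. The list for pentatricopeptide repeat and NB-LRR transcripts had 2 falls among 6, miR161.1 and the opposite strand miR472-5p. Of 11 tested sequences of miR156 and miR157, 1 fell and 0 rose, and the median of -0.17 turned to 0.10 with total miRNA counts as the library size. The regulators of the miRNA machinery itself (miR162, miR168 and miR403, which target DCL1, AGO1 and AGO2) had 0 calls among 7, and their median of -0.09 also changed sign, to 0.18, with total miRNA counts. For single lists these shares can be read only against the 8.98% of all tested sequences that rose and the 10.8% that fell.

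**Figure D3:**
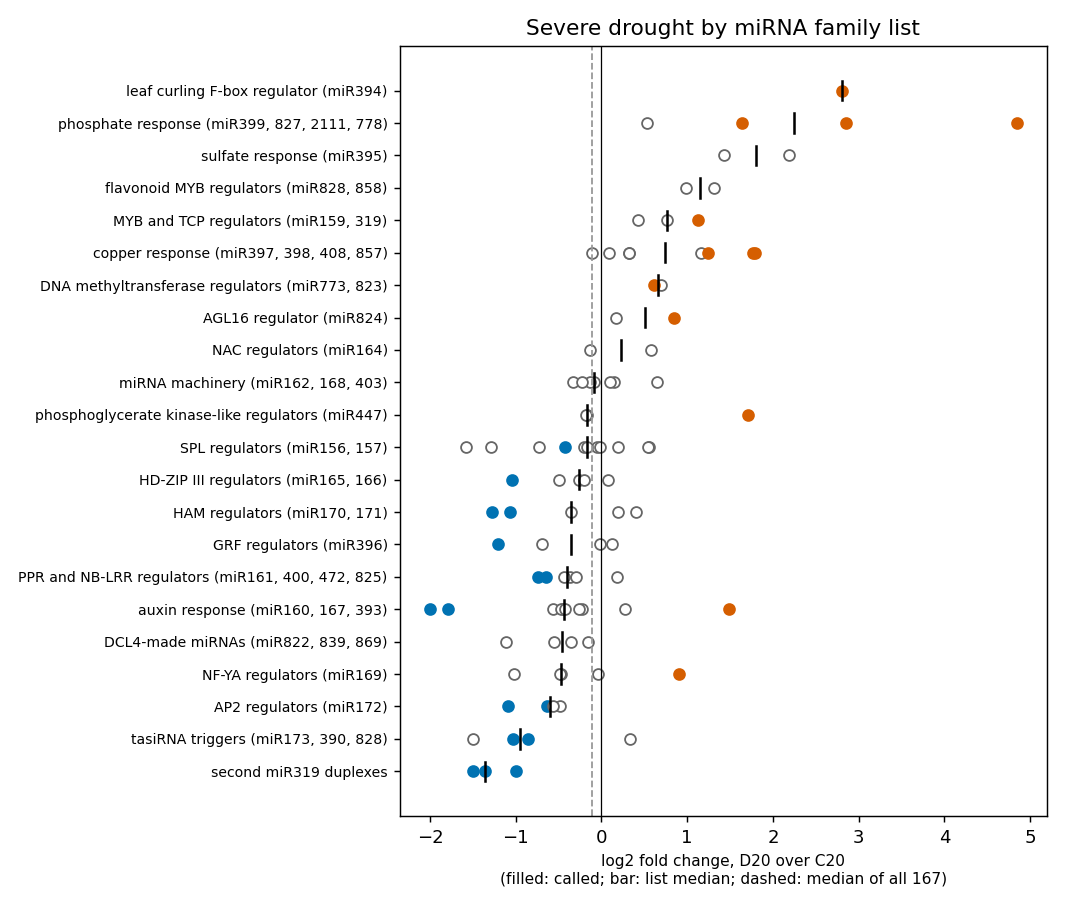
Log2 fold change of D20 over C20 for each tested member of the 22 family lists, ordered by list median (black bars), with called members filled and the median of all 167 tested sequences, -0.11, dashed. The copper list (median 0.74) and the phosphate list (median 2.24) hold 3 rises each, and the second miR319 duplexes (median -1.36) 3 falls.

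The balance between the strands of a hairpin does not depend on the scaling of a library. Of 37 pairs with both strands tested, the reads of the less abundant strand over those of the more abundant one did not overlap between the groups in 12 pairs, lower in D20 in 5 (13.5%) and higher in D20 in 7 (18.9%). Which strand is the less abundant was set in the 33 libraries of the other conditions. Pairs that share a sequence, such as those of MIR171b and MIR171c, share its reads. Set against miR160a-3p, the shared miR160 5p strand made up 37.2, 69.0 and 69.6% of the reads of both strands in D20, against 18.1, 13.1 and 8.37% in C20. Set against miR171c-5p, the regulator miR171b-3p,c-3p made up 41.0, 40.9 and 59.3% in D20, against 24.8, 12.9 and 25.5% in C20. At MIR396b the share of miR396b-3p was 46.7, 28.1 and 23.8% in D20, against a narrow 54.6, 56.3 and 54.4% in C20. In these 3 comparisons the share of the known regulator was higher in every D20 library than in every C20 library. The regulator reads of the first include those of MIR160b and MIR160c and of the second those of MIR171b, so only at MIR396b do both strands come from 1 hairpin. Set against miR160c-3p, the miR160 5p strand made up 25.3, 64.9 and 68.6% in D20, against 14.5, 34.2 and 17.9% in C20, with overlap.

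The same direction was seen at MIR173 and for miR166a-5p,b-5p, whose partner sequence is shared by miR166a to miR166g. miR173-3p, opposite the siRNA trigger, made up 0.979, 0.555 and 0.919% of both strands in D20, against 2.19, 1.83 and 1.85% in C20, and miR166a-5p,b-5p made up 0.194, 0.240 and 0.279% in D20, against 0.343, 0.387 and 0.519% in C20. At MIR408 both strands rose, and the share of miR408-3p, at 2.97, 4.21 and 3.39% in D20, against 3.24, 2.24 and 2.12% in C20, overlapped. At MIR2111b, as given above, and at MIR391, MIR472 and MIR841a the less abundant strand gained in D20, and at MIR167a and MIR168a it lost. Of these, only MIR391 and MIR472 have both strands from a single hairpin. At the others the more abundant strand also matches MIR2111a, MIR841b, MIR167b or MIR168b, so the balance of the named hairpin cannot be read. Counted over single strands, 4 of 33 less abundant strands rose and 4 fell. Of 30 more abundant strands 2 rose and 7 fell, so falls were not confined to the less abundant strand. Among those 7 falls, miR160a-3p, miR171b-5p, miR171c-5p and miR472-5p were of the strand opposite a known regulator. The others were miR157a-5p,b-5p,c-5p, miR172a,b-3p and miR390a-5p,b-5p. The fallen miR172b-5p,e-5p was in neither count, as it was less abundant at MIR172b and more abundant at MIR172e. miR157a-3p,b-3p shows how far D20 replicate 1 could differ from the others, with 1086, 262 and 228 CPM in D20, against 1002, 1098 and 1829.9 CPM in C20 (-1.58, SE 0.61, edgeR adjusted p = 0.115).

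**Figure D4:**
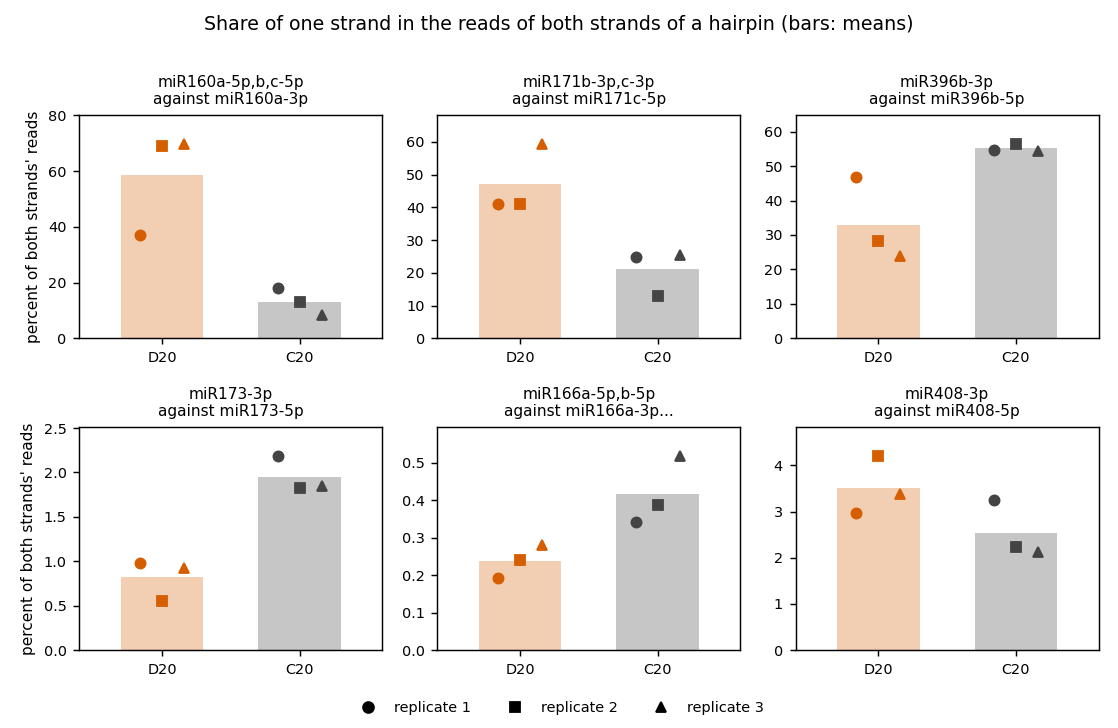
Share of 1 strand in the summed reads of 2 partner strands, in percent, for 6 strand pairs, with D20 left and C20 right, bars at the means and a symbol per replicate. In the first 5 panels the groups do not overlap, as for miR396b-3p with 23.8 to 46.7% in D20 and 54.4 to 56.3% in C20, and at MIR408 they overlap.

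A few sequences made up most of the reads, and most of them were not called. The 10 most abundant sequences together took 94.7, 94.2 and 94.4% of the miRNA reads in D20, against 94.7, 95.3 and 95.2% in C20. Besides miR157a-5p,b-5p,c-5p, miR408-5p, miR172a,b-3p and miR161.1, described above, they were miR167a-5p,b, the shared 5p sequence of miR156a to miR156f, the shared 3p sequence of miR166a to miR166g, miR168a-5p,b-5p, miR158a-3p and miR165a-3p,b, and none of these 6 was called. The AGO1 regulator miR168a-5p,b-5p took 9.03, 8.94 and 7.63% in D20, against 6.12, 7.20 and 6.40% in C20, without overlap, yet its log2 fold change after TMM scaling was 0.10 (SE 0.16, edgeR adjusted p = 0.689). By length, sequences of 21 nt held 79.0% of the miRNA reads in D20 and 80.8% in C20, and those of 20 nt 20.4% in D20 and 18.7% in C20.

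Mild drought gave few calls. Of 166 sequences tested in D30 against C30, edgeR called 1 higher (0.602%), miR398b-5p,c-5p at 1.49 (SE 0.21, adjusted p = 0.00232), and 0 lower (0.00%), while 14 were higher and 11 lower at an unadjusted p under 0.05, and without the filter on low counts 2 were called lower. Without D30 replicate 1 or 3 0 were called, without C30 replicate 1 the calls were 2 and without C30 replicate 2 they were 5. Of the 15 rises of severe drought, 11 had enough reads for the mild test and 10 of these lay above 0, with a median of 0.16 beside 1.49 under severe drought. All 18 falls were tested and 12 lay below 0, with a median of -0.05 beside -1.05 under severe drought. The median of all sequences in mild drought was 0.00, and 84 of the 166 lay above 0. The rises and falls were chosen by their call in severe drought, so the severe medians were partly fixed by that choice and the mild ones were not. The 2 drought levels have separate controls and plants of different age, so age and drought level cannot be told apart in a comparison of D20 with D30.

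The difference between the levels was tested in the 12 drought libraries as the severe log2 fold change minus the mild one. edgeR called 6 of 177 sequences (3.39%), 4 with a higher (2.26%) and 2 with a lower (1.13%) response to severe drought. For miR866-5p the difference was 3.10 (SE 0.41, edgeR adjusted p = 0.000889), and in mild drought the mean was 2.72 CPM in D30 and 2.64 CPM in C30. This sequence passed the filter of the severe drought test through D20, where it is high, so the difference is given as a description. miR160a-3p differed by -2.03 (SE 0.40, edgeR adjusted p = 0.0211), miR159a by 1.80 (SE 0.43), miR164c-5p by 1.69 (SE 0.42), miR396b-3p by -1.44 (SE 0.34) and miR408-3p by 1.30 (SE 0.32), the last 4 at an edgeR adjusted p of 0.0437. The NAC regulator miR164c-5p was called at neither level on its own: it had 2739, 3008 and 2369.8 CPM in D20, against 972, 1918 and 1544 CPM in C20 (0.58, SE 0.29), and 1026, 958 and 1270.4 CPM in D30, against 2319, 1403 and 2243 CPM in C30 (-1.01, SE 0.23, edgeR adjusted p = 0.0739). The count of 6 was 14 with RLE scaling, 14 without D20 replicate 1, 2 without D20 replicate 3, and 3 without C20 replicate 2 or C30 replicate 3. For the copper strand miR408-5p, at 1.25 in severe and 0.79 in mild drought, the difference of 0.59 (SE 0.32, edgeR adjusted p = 0.304) was not called.

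**Figure D5:**
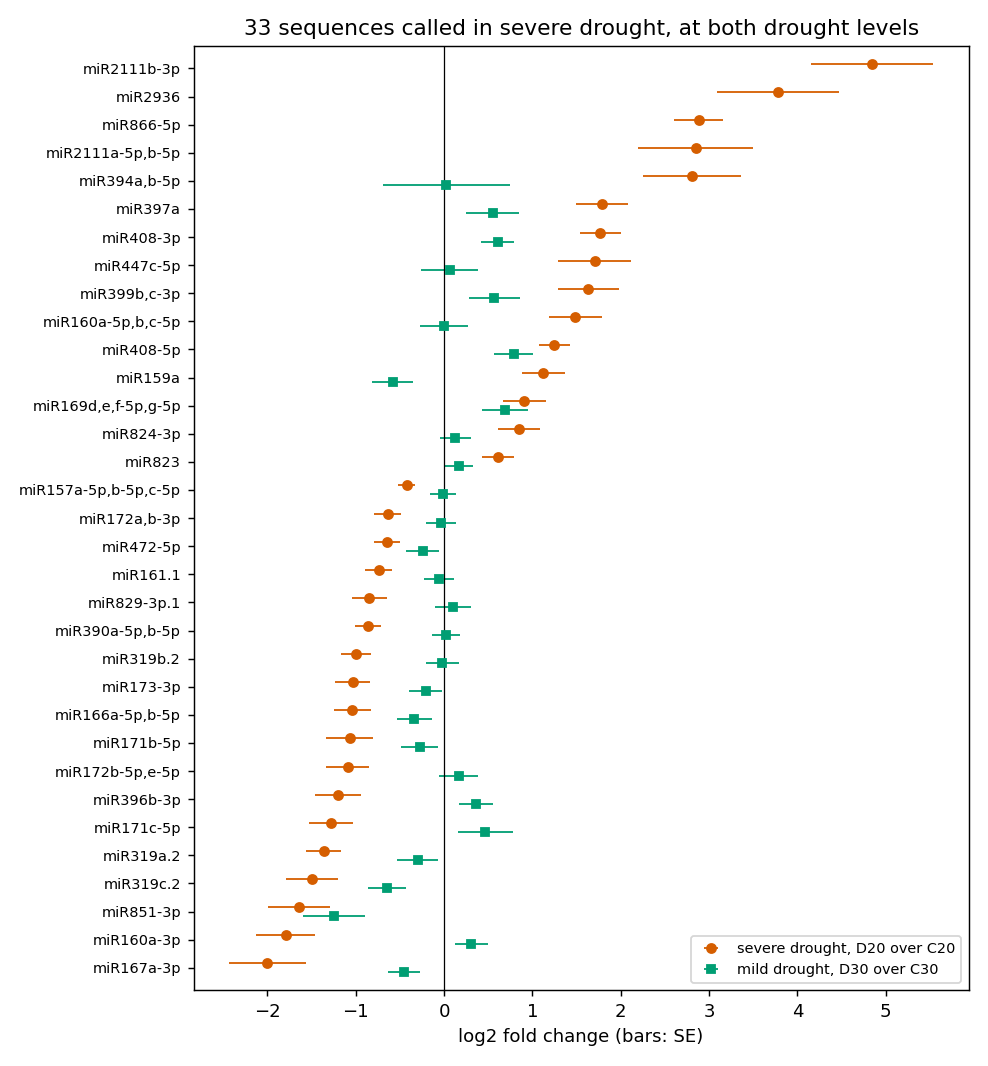
Log2 fold changes with SE of the 33 called sequences in severe drought (D20 over C20, circles) and, where tested, in mild drought (D30 over C30, squares). miR408-5p reaches 0.79 in mild drought, miR159a lies on the other side of 0 at -0.58, and 4 of the rises, among them miR866-5p, had too few reads for the mild test.

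Set against all 13 conditions, D20 leaves had the highest mean CPM for 7 of the 15 risen sequences and the lowest for 3 of the 18 that fell. The 7 were miR866-5p, miR408-5p, miR2111a-5p,b-5p, miR2111b-3p, miR159a, miR447c-5p and miR824-3p, and the 3 were miR157a-5p,b-5p,c-5p, miR319c.2 and miR829-3p.1. For other called sequences the watered C20 leaves were at the extreme of the 13 conditions. Their mean was the lowest for miR160a-5p,b,c-5p, miR394a,b-5p and miR399b,c-3p. It was the highest for miR161.1, miR172a,b-3p, miR173-3p, miR319b.2 and miR472-5p. miR408-3p, with a D20 mean of 1269.5 CPM, was higher only in the salinity seedlings, at 4769 CPM. miR399b,c-3p, though risen in D20 to 16.5 CPM, stayed below every seedling condition, of which the lowest mean was 28.7 CPM. Among the 4 leaf groups D20 was highest for 14 of the 15 rises, all but miR169d,e,f-5p,g-5p, and lowest for 17 of the 18 falls, all but miR172a,b-3p. The sequences were chosen by their difference between D20 and C20, both among the ranked groups, so the ranks were partly fixed by that choice. Ranks over all tested sequences were not counted. The seedlings differ from the leaves in age, growth medium and organ, and these ranks are descriptions.

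Most of the 5 uncalled sequences closest to the call threshold were higher in D20. The 5 with the smallest adjusted p were miR5648-3p (0.72, edgeR adjusted p = 0.057), miR395a,d,e, miR398b-3p,c-3p, miR858a and miR846-3p (-0.79, edgeR adjusted p = 0.0743). miR858a, which represses MYB factors of flavonoid synthesis, had 11.2, 18.2 and 18.7 CPM in D20, against 9.17, 2.48 and 4.94 CPM in C20 (1.32, SE 0.42, edgeR adjusted p = 0.0691). Like miR395a,d,e and miR398b-3p,c-3p, miR858a passed the filter on low counts through D20, so these differences are descriptions. In CPM without TMM, 28 uncalled sequences lay higher in every D20 library than in every C20 library and 3 lay lower. Among all 167 tested sequences these counts were 43 and 20. Scaling by total miRNA counts, as in CPM, moved the median log2 fold change by 0.26 against TMM. The split of 28 to 3 therefore cannot be read apart from the scaling. Another 186 sequences were not tested, 56 of them without a read and 130 with at most 66 reads over the 6 libraries. Of these, miR854a,b,c,d,e had 5, 3 and 3 reads in D20, against 29, 10 and 7 reads in C20, miR164b-3p had 5, 6 and 5 reads in D20, against 17, 9 and 8 reads in C20, and miR840-5p had 8, 11 and 20 reads in D20, against 7, 10 and 7 reads in C20.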

How the data were processed

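Small RNA of 3 biological replicates per condition was sequenced by the authors on an Illumina HiSeq instrument. Per the study, genome mapping used TAIR10 and Bowtie 1.0.0, reads under 17 nt were dropped, and mature sequences of miRBase 21 plus 4 added small RNAs of the miR319 and miR163 hairpins were searched for matches, with reads trimmed at both ends for a further attempt, so that variants of a miRNA count toward it. The deposited read counts are whole numbers. The deposited CPM are counts divided by all miRNA reads of a library, times 1000000, and were recomputed here, since 37 of 2118 values differed by more than 2% (19 sequences of at most 3 reads). The RNA integrity score and the percent of mapped reads were deposited per library. The authors' fold changes (ratio) and p-values of a one-way F test, and the deposited pri-miRNA values, were not used.

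Names with 1 sequence were merged (45 sequences). Counts were tested with edgeR 4.0.16 in R 4.3.3 (quasi-likelihood test, TMM, filterByExpr with a minimum count of 10, Benjamini-Hochberg over all tested sequences, called under 0.05), on the 6 libraries of D20 and C20, the 6 of D30 and C30, or all 12 for the difference. The SE is the log2 fold change over the square root of F. DESeq2 1.42.0, limma-voom (limma 3.58.1), other scalings and filters, and fits without 1 library were alternatives. The code was tested on simulated data. Sequences were placed in TAIR10.1 by exact match, and sites are the best antisense match in RefSeq transcripts of known target genes. Members and lists were chosen with earlier results of these data known. Named were all called sequences, their partner strands and relatives, the 10 most abundant, the 5 closest to a call, untested ones that did not overlap with at least 20 reads in the higher group, and those that differed between drought levels.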

Additional observations from a re-analysis of the deposited data

Results flagged for a closer look

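For 6 sequences the response to severe drought differed from that to mild drought by edgeR's quasi-likelihood test of the difference (severe minus mild, log2, adjusted by Benjamini-Hochberg over 177 sequences). The differences were 3.10 for miR866-5p (adjusted p = 0.000889), -2.03 for miR160a-3p (adjusted p = 0.0211), and at adjusted p = 0.0437 each 1.80 for miR159a, 1.69 for miR164c-5p, -1.44 for miR396b-3p and 1.30 for miR408-3p. Within the levels, the log2 fold changes were -1.80 (severe) and 0.31 (mild) for miR160a-3p, 1.12 and -0.58 for miR159a, 0.58 and -1.01 for miR164c-5p, -1.20 and 0.36 for miR396b-3p, and 1.77 and 0.61 for miR408-3p. miR866-5p rose by 2.88 in severe drought and had too few reads for the mild test. It passed the filter of the severe drought test through D20, where it is high, so its values are descriptions. The plants of the 2 levels differed in age by design, which cannot be told apart from the level here.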

How the results depend on the processing

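The 33 calls of D20 against C20 (15 higher, 18 lower) were 29 to 43 under other scalings and filters, DESeq2, limma-voom and the spread of all 12 drought libraries, the last with 24 higher, and no called sequence changed direction under any alternative run. The authors' kind of test, an F test of CPM without adjustment, gave 59 (43 higher). Fits without 1 library gave 7 to 44 calls (5 to 24 higher, 2 to 20 lower). Same-numbered D20 and C20 replicates did not deviate together (correlations -0.04, 0.17 and -0.05), and the replicate block gave 27 calls (12 higher, 15 lower). For mild drought the 1 call became 3 (2 lower) without the filter on low counts and 0 to 5 without 1 library (0 to 3 higher, 0 to 2 lower). For the difference between drought levels the 6 calls became 14 with RLE scaling (8 lower), 9 without the filter (4 lower), 5 with the replicate block, and 2 to 14 without 1 library (1 to 7 higher, 1 to 8 lower). The miRNA share of mapped reads differed by -6.17 to -1.31 percentage points without 1 library. The causes of these shifts were not tested. At 3 reads a sequence stands at 0.828 to 1.13 CPM, and 186 sequences were too low for a test.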
